A study of Homo sapiens with 18 samples.

Results

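The 10 genes described here encode the parts that lie between bacterial lipopolysaccharide (LPS) at the cell surface and the first kinases inside: the co-receptors CD14 and LY96 (MD-2), the adaptors MYD88, TIRAP, TICAM1 (TRIF) and TICAM2 (TRAM), the kinases IRAK1, IRAK2 and IRAK4, and the ubiquitin ligase TRAF6. They were found by their GENCODE 29 symbols among the 57500 genes of the deposited tables, each symbol standing for 1 gene. The libraries were of polyadenylated RNA from THP-1, a cell line of human monocytic leukaemia, which stably carried a short hairpin RNA against no target (shNT), against NR4A2 (shNR4A2) or against NR4A3 (shNR4A3), orphan nuclear receptors that LPS induces. Each line was left untreated (control) or given LPS at 2.5 μg/ml for 2 h, with 3 libraries in each of the 6 groups and 18 in all. Reads counted on genes ran from 16171161 to 23929138 per library (median 19639071).

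All 6 groups, controls included, carried a hairpin and were grown under puromycin selection, so no parental cells enter the comparisons. Each hairpin is represented by a single line, and the effect of a hairpin and that of its line cannot be told apart. All 9 monocytic markers, among them SPI1 and LYZ, had a mean of at least 1 TPM (the count per base of exon, set to a common total for each library), and none of the 5 T cell, 4 erythroid, 4 epithelial or 3 fibroblast markers did. Among B cell markers 4 of 5 did, with PAX5 at a mean of 3.50 TPM as the most abundant, and NKG7 (45.0 TPM) did among 3 NK cell markers. Each hairpin's target had less RNA in its own line. NR4A2 had a log2 fold change of -1.52 (SE 0.192, adjusted p = 0.00265 by edgeR) in shNR4A2 cells with LPS and -0.91 (adjusted p = 0.0359) without. Leaving out replicate 1 or 3 of shNT control, or 1 or 2 of shNR4A2 control, ended the latter call (adjusted p from 0.0728 to 0.124). NR4A3 had -0.82 (SE 0.0799, adjusted p = 0.000556) in shNR4A3 cells with LPS and -2.47 (adjusted p = 0.00767) without. The value without LPS rests on few reads, 5, 3 and 1 counts in shNR4A3 control and 20, 21 and 17 in shNT control libraries. NR4A2 was at -0.36 in shNR4A3 cells with LPS (adjusted p = 0.198), which was called with the replicate number as a block (0.00132), with no filter on low counts (0.0109) and without shNR4A3 LPS replicate 2 (0.0234).

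LPS is handed by CD14 to the complex of TLR4 and LY96. The activated receptor recruits TIRAP and MYD88, which build a complex of IRAK4 with IRAK1 and IRAK2 that turns on TRAF6 and, through it, the kinases of NF-κB and MAP kinase signalling. From endosomes the same receptor uses TICAM2 and TICAM1 to reach TRAF3 and the kinases that activate IRF3, so the adaptors divide the response into a MYD88 arm and a TRIF arm.

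The 10 transcripts spanned a wide range of levels. IRAK1, a kinase of the receptor complex, was the most abundant, with a mean of 329 TPM over the 18 libraries (269.8 to 409.6), above 99.1% of the 46226 genes with a count. LY96, which binds the lipid of LPS, was at 2.51 TPM on 1 to 20 counts per library. TICAM2, the bridge between TLR4 and TICAM1, was at 0.235 TPM on 0 to 13 counts. In shNT control cells IRAK1 (314 ± 29.7 TPM, SD, n = 3) was followed by MYD88 (62.2 ± 2.14 TPM), and the libraries of these 2 genes did not overlap. IRAK4 (25.7 ± 3.80 TPM), CD14 (22.6 ± 8.35 TPM), TICAM1 (20.1 ± 1.23 TPM), TRAF6 (17.4 ± 2.26 TPM) and TIRAP (14.6 ± 0.572 TPM) came next, and each overlapped its neighbour in this order. IRAK2 (6.86 ± 0.488 TPM) lay below TIRAP in every library. With LPS the order in shNT cells became IRAK1 (288 ± 25.7 TPM), IRAK2 (147 ± 28.999 TPM), TICAM1 (96.6 ± 12.5 TPM) and MYD88 (66.7 ± 5.94 TPM), with no overlap between neighbours. IRAK2 thus moved from rank 8 to rank 2 and TICAM1 from rank 5 to rank 3. The overview of TPM by library shows both moves in all 3 lines.

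**Figure D1:**
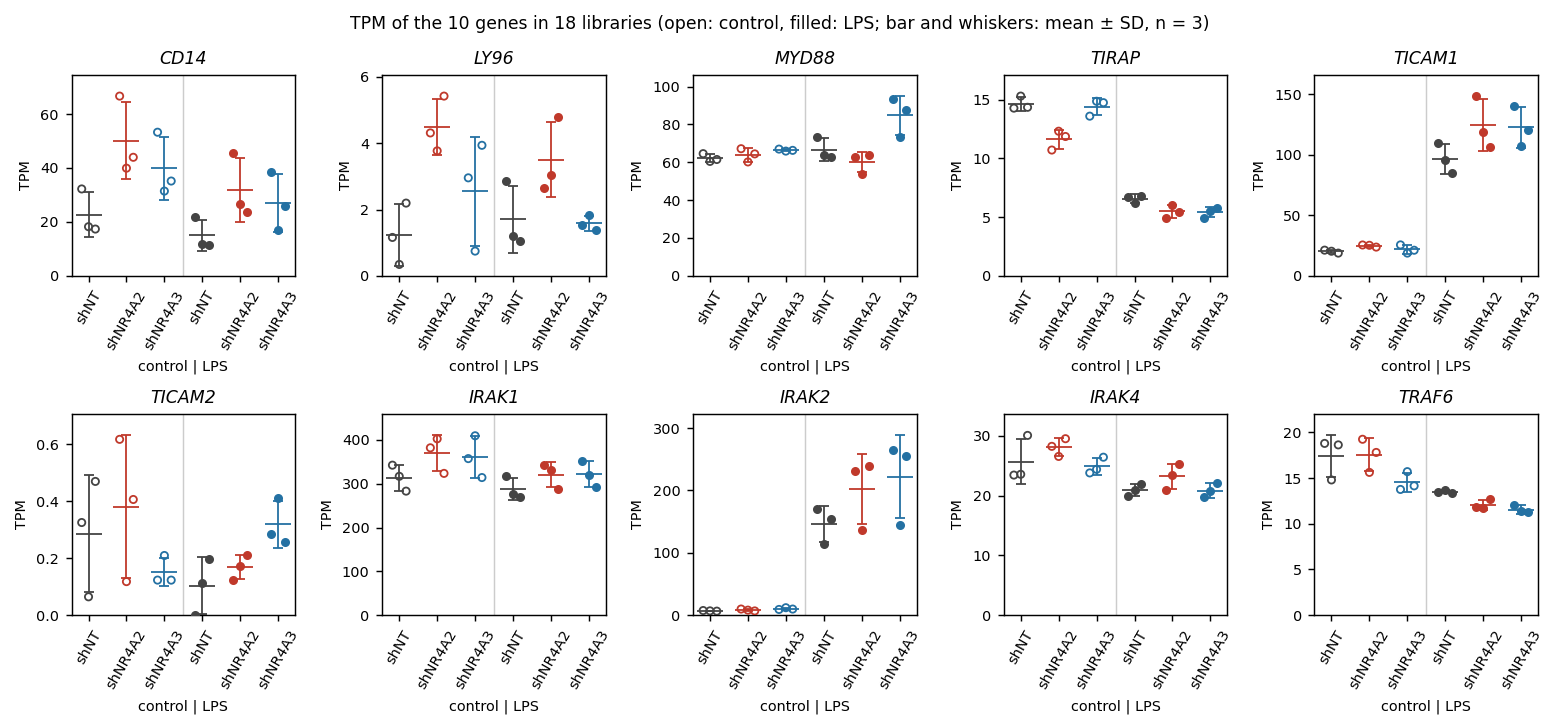
TPM of each of the 10 genes (vertical axes, each starting at 0) in the 6 groups, with open points for control and filled points for LPS libraries and bars for mean ± SD (n = 3). IRAK2 and TICAM1 rise with LPS in every line and TIRAP falls, while CD14 is higher in both knockdown lines than in shNT on average.

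The first question was how LPS changed these transcripts. IRAK2 and TICAM1 rose and TIRAP fell in all 3 lines, and MYD88 rose in shNT and shNR4A3 cells. In shNT cells edgeR tested 8 of the 10 genes, since LY96 and TICAM2 did not pass its filter on low counts, and at the limit of 0.05 on the adjusted p called 3 higher and 1 lower. Of all 15711 genes tested there, 24.9% were called, 11.6% higher and 13.3% lower. In shNR4A2 cells 9 genes were tested, with 2 called higher and 1 lower, where 19.3% of all genes were called (9.23% higher, 10.1% lower). In shNR4A3 cells 8 were tested, with 3 called higher and 1 lower, where 28.1% of all genes were called (13.1% higher, 15.0% lower). The median absolute log2 fold change of those tested was 0.35, 0.27 and 0.46 in the 3 lines, beside 0.22, 0.26 and 0.26 over all genes. LPS raised TNF, IL6, CXCL8, CCL20 and NFKBIA, targets of the pathway, in every line, with NFKBIA at log2 fold changes of 4.05, 4.28 and 3.76 in shNT, shNR4A2 and shNR4A3 cells (adjusted p = 2.83e-12, 6.99e-10 and 1.01e-09 by edgeR).

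TPM and the fitted fold changes have different zero points with LPS. The median log2 ratio of TPM over all genes tested was -0.23, -0.28 and -0.24 in shNT, shNR4A2 and shNR4A3 cells, while the median fitted log2 fold change was -0.01, -0.02 and -0.01. Changes with LPS are therefore given as fitted values, which are relative to the middle of all genes, and TPM are given as levels.

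IRAK2, a kinase that sustains signalling through TRAF6, had 7.36, 6.81 and 6.39 TPM in shNT control replicates 1 to 3 and 171, 115 and 155 TPM in the LPS libraries. In shNR4A2 cells the values were 9.76, 7.99 and 6.71 TPM without and 231, 137 and 239.8 TPM with LPS. The shNR4A3 libraries had 9.10, 11.9 and 9.72 TPM without and 264, 145 and 256 TPM with LPS. Every LPS library lay far above every control library, and replicate 2 was the lowest of the LPS libraries in each line. The log2 fold change was 4.64 (SE 0.167, adjusted p = 7.51e-11 by edgeR's quasi-likelihood test, 25.0-fold) in shNT, 4.91 (SE 0.261, adjusted p = 4.03e-08) in shNR4A2 and 4.69 (SE 0.249, adjusted p = 1.8e-07) in shNR4A3 cells. Exact permutation tests of TPM (2-sided) gave p = 0.1 in each line, the smallest that 3 libraries against 3 allow. No library left out ended any of these calls.

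The makeup of the kinase group changed with it. In shNT cells IRAK2 was 1.98% ± 0.0191 (SD, n = 3) of the summed TPM of IRAK1, IRAK2 and IRAK4 without LPS and 32.0% ± 3.72 with LPS. The shares were 2.01% ± 0.277 and 36.7% ± 7.90 in shNR4A2 cells and 2.59% ± 0.231 and 38.7% ± 7.84 in shNR4A3 cells. The LPS shares of the 3 lines overlapped.

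TICAM1, the adaptor of the TRIF arm, had 21.2, 20.3 and 18.8 TPM in shNT control cells and 109.7, 95.5 and 84.8 TPM with LPS. It had 25.5, 25.2 and 23.7 TPM in shNR4A2 control cells and 148, 119 and 107 TPM with LPS. In shNR4A3 cells it had 25.5, 18.8 and 21.1 TPM without and 140.2, 107 and 121 TPM with LPS. All LPS libraries lay above all control libraries. The log2 fold changes by edgeR were 2.48 (SE 0.118, adjusted p = 1.68e-09, 5.59-fold) in shNT, 2.60 (SE 0.159, adjusted p = 1.51e-07) in shNR4A2 and 2.72 (SE 0.167, adjusted p = 5.53e-07) in shNR4A3 cells. The ratio of TICAM1 to MYD88 TPM rose from 0.323 ± 0.0160 to 1.45 ± 0.0847 in shNT cells, from 0.389 ± 0.0267 to 2.08 ± 0.368 in shNR4A2 cells and from 0.328 ± 0.0491 to 1.45 ± 0.0606 in shNR4A3 cells (SD, n = 3 each). With LPS the 3 ratios of shNR4A2 cells (1.67 to 2.37) lay above the 3 of shNT cells (1.35 to 1.499), for which an exact 2-sided permutation test has its smallest p of 0.1. Without LPS they also lay above, at 0.368 to 0.419 in shNR4A2 against 0.305 to 0.336 in shNT control cells.

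The bases before the start sites of TICAM1 and IRAK2, the members with the largest rise, are shown because both rose together. They were taken from RefSeq's promoter table (GRCh38.p14), which holds 8 of the 10 genes, all but LY96 and TIRAP, and each run ends before the gene's span in the deposited tables. Capitals mark a match to the κB consensus, the binding motif of NF-κB, searched on both strands over 250 bases before to 50 after each start site. The 250 bases of TICAM1 are chr19:4831713-4831962 on the minus strand and the 196 bases of IRAK2 are chr3:10164669-10164864 on the plus strand.
TICAM1: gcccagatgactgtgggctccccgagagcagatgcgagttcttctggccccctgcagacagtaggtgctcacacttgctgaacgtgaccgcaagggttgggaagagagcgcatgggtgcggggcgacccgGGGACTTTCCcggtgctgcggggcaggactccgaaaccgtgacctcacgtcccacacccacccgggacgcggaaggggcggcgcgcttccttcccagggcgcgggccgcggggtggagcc
IRAK2: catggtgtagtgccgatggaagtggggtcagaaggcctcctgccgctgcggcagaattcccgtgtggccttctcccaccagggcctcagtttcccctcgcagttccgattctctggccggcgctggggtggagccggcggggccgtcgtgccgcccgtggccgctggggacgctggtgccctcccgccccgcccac
The match in TICAM1 starts 120 bases before the start site and was the only one among the 8 genes (1 of 8), while 5.91% of all 35116 promoters in the table hold one. The NBRE (AAAGGTCA), the motif that NR4A receptors bind as monomers, was in 0 of the 8 and in 1.22% of all promoters. A match or its lack says only whether these letters stand in this window.

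Over the 18 libraries and 16935 genes, the transcripts most like IRAK2 by Pearson's r of log2 CPM were DRAM1 (r = 0.998), IL4I1 (0.996) and ICAM1 (0.996), and those most like TICAM1 were BCL6 (0.995), PLEK (0.994) and ICAM1 (0.993). These points share the same libraries and fall into a control and an LPS cluster, so r describes mainly the step between them.

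TIRAP, which brings MYD88 to TLR4 at the membrane, moved the other way. It had 14.3, 15.3 and 14.4 TPM in shNT control cells and 6.75, 6.17 and 6.81 TPM with LPS. In shNR4A2 cells it had 10.7, 12.3 and 11.9 TPM without and 4.95, 6.04 and 5.47 TPM with LPS, and in shNR4A3 cells 13.6, 14.9 and 14.7 TPM without and 4.94, 5.52 and 5.78 TPM with LPS. No LPS library reached the lowest control library of its line. The log2 fold change by edgeR was -0.93 (SE 0.134, adjusted p = 0.000153) in shNT, -0.82 (SE 0.166, adjusted p = 0.00383) in shNR4A2 and -1.18 (SE 0.137, adjusted p = 8.72e-05) in shNR4A3 cells, and no call was lost with a library left out. TIRAP shares 450 and 359 bases of exon with the antisense genes AP001318.1 and AP001318.2 (23 and 463 counts over the 18 libraries, against 3358 for TIRAP). The strand setting of the counting is not given in the sources used here, so reads of TIRAP and these partners cannot be told apart there. AP001318.2 had 47, 21 and 36 counts in shNT control and 20, 15 and 21 in shNT LPS libraries. It had 37, 26 and 38 without and 13, 19 and 13 with LPS in shNR4A2 cells. In shNR4A3 cells it had 41, 21 and 48 without and 21, 10 and 16 with LPS. Its part in the fall of TIRAP was not tested.

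MYD88, the adaptor of most Toll-like receptors, was called higher in shNT and shNR4A3 cells. In shNT cells it had 64.6, 60.4 and 61.5 TPM without and 73.6, 63.7 and 62.9 TPM with LPS, and the groups overlapped in TPM. The log2 fold change of 0.32 (SE 0.0939, adjusted p = 0.0223 by edgeR) was no longer called without shNT control replicates 2 or 3 or shNT LPS replicate 1 (adjusted p from 0.0531 to 0.0977), nor with all 18 libraries in 1 fit (adjusted p = 0.0641). In shNR4A3 cells MYD88 had 67.0, 65.9 and 66.3 TPM without and 93.4, 73.6 and 87.4 TPM with LPS, with all LPS libraries higher and a log2 fold change of 0.59 (SE 0.120, adjusted p = 0.00358) that was called in each alternative run (adjusted p up to 0.0185). The shNR4A2 libraries had 67.2, 60.2 and 64.4 TPM without and 62.6, 53.8 and 63.9 TPM with LPS, with a log2 fold change of 0.19 (SE 0.132, adjusted p = 0.372) that is below zero as a ratio of TPM.

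CD14, the surface protein that collects LPS, was lower with LPS in each replicate number of each line, but its libraries differed widely. In shNT cells it had 32.2, 18.2 and 17.3 TPM without and 21.7, 11.8 and 11.6 TPM with LPS. The log2 fold changes by edgeR of -0.38 (SE 0.268, adjusted p = 0.347) in shNT, -0.38 (SE 0.261, adjusted p = 0.359) in shNR4A2 and -0.33 (SE 0.295, adjusted p = 0.452) in shNR4A3 cells did not pass the limit. When the number of the replicate entered as a block, which takes out differences shared by libraries of the same number, the adjusted p was 0.0234 in shNR4A2 and 0.0329 in shNR4A3 cells. In shNT cells, where the numbers do not pair the libraries by the check used here, it was 0.0301. The call was also gained without shNT LPS replicate 1 (adjusted p = 0.0395) and without shNR4A2 LPS replicate 1 (adjusted p = 0.0404).

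IRAK1, IRAK4 and TRAF6 were not called in any line. IRAK1 had log2 fold changes of 0.09 (95% interval -0.13 to 0.31), 0.06 (-0.22 to 0.35) and 0.07 (-0.17 to 0.31) in shNT, shNR4A2 and shNR4A3 cells. IRAK4, the first kinase of the complex, had -0.07 (-0.30 to 0.15), -0.01 (-0.28 to 0.26) and -0.03 (-0.25 to 0.19). TRAF6, the ubiquitin ligase, had -0.14 (-0.38 to 0.09), -0.27 (-0.58 to 0.04) and -0.10 (-0.35 to 0.15). In TPM both IRAK4 and TRAF6 were lower in every LPS library than in every control library of the line (TRAF6 13.3 to 13.7 against 14.8 to 18.8 TPM in shNT cells), while the middle of all genes was lower in TPM as well. LY96 was tested only in shNR4A2 cells (log2 fold change -0.08, SE 0.378, adjusted p = 0.909).

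**Figure D2:**
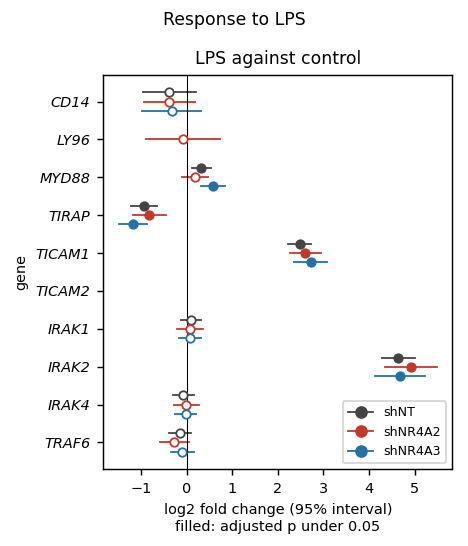
Log2 fold change with LPS (horizontal axis, edgeR) of the genes tested, with 95% intervals, in shNT (grey), shNR4A2 (red) and shNR4A3 (blue) cells, filled where the adjusted p is under 0.05. IRAK2 lies between 4.64 and 4.91, TICAM1 between 2.48 and 2.72 and TIRAP between -1.18 and -0.82.

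Whether the response to LPS differed between lines was tested as an interaction of line and LPS. edgeR called 0 of the members for shNR4A2 against shNT (9 tested) and 0 for shNR4A3 against shNT (8 tested), as it called 0% of all genes in both, with 365 and 824 genes at an unadjusted p under 0.05. DESeq2 called 2 and 10 genes and no member. Among the pathway genes described further on, TRAF3 had an interaction with shNR4A3 of 0.58 (adjusted p = 0.886), called with no filter on low counts (0.0155) and without shNR4A3 LPS replicate 2 (0.0336), and MAP3K8 one of 0.81 (adjusted p = 0.999), called with no filter (0.000654). With the replicate block their adjusted p was 0.249 and 0.502. The interaction for IRAK2 was 0.28 (95% interval -0.43 to 0.98) with shNR4A2 and 0.04 (-0.67 to 0.75) with shNR4A3. For TICAM1 it was 0.13 (-0.30 to 0.55) and 0.23 (-0.22 to 0.69), and for MYD88 -0.13 (-0.46 to 0.21) and 0.26 (-0.07 to 0.60). Each of these intervals, from the fits without the block, spans zero. With the replicate block the interaction for MYD88 with shNR4A3 was 0.26 (SE 0.115 against 0.156 without, adjusted p = 0.529 by edgeR).

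The second question was whether the lines differed from shNT cells before and after LPS. CD14 was higher in both knockdown lines, LY96 in shNR4A2 and IRAK2 in shNR4A3 control cells, and with LPS no member was called. In shNR4A2 control cells 2 of 9 genes tested were called, both higher, where 6.45% of all genes were called (3.63% higher, 2.82% lower). In shNR4A3 control cells 2 of 8 were called, both higher, against 7.23% of all genes (3.91% higher, 3.32% lower). With LPS 0 of 8 were called in either line, against 6.96% of all genes (4.31% higher, 2.65% lower) in shNR4A2 and 6.45% (3.99% higher, 2.46% lower) in shNR4A3 cells. The replicate numbers pair the libraries in all 4 of these comparisons, and with the number as a block the members called were 5 and 4 in shNR4A2 cells without and with LPS and 3 and 5 in shNR4A3 cells. The block also raised the calls among all genes, to 3733, 4385, 2267 and 3401 from 1019, 1085, 1108 and 1005. It thus called 23.6% (12.1% higher, 11.5% lower) and 28.1% (15.2% higher, 13.0% lower) of all genes in shNR4A2 cells without and with LPS, and 14.8% (8.09% higher, 6.71% lower) and 21.8% (12.3% higher, 9.50% lower) in shNR4A3 cells, and counts with the block are to be set beside these shares.

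**Figure D3:**
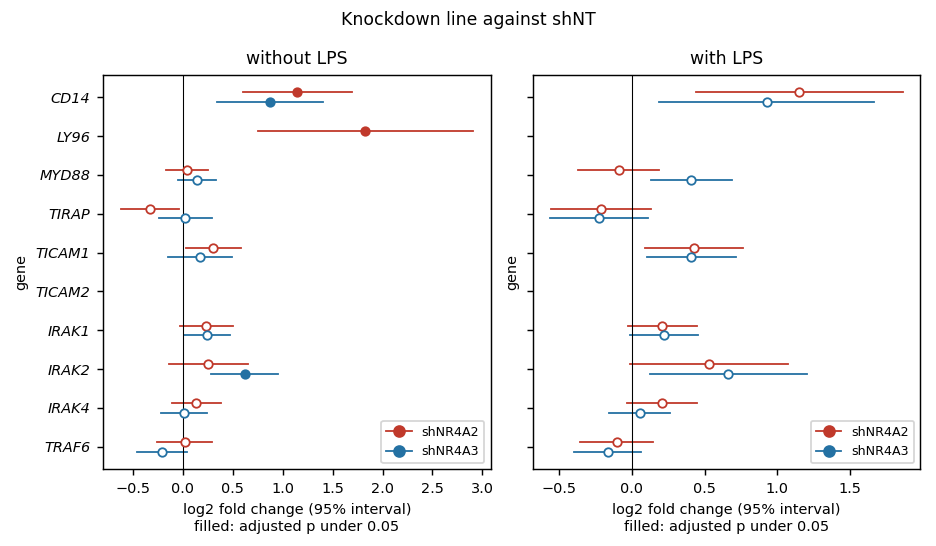
Log2 fold change of shNR4A2 (red) and shNR4A3 (blue) against shNT cells (horizontal axes, edgeR, with 95% intervals) without and with LPS, filled where the adjusted p is under 0.05. CD14 lies between 0.87 and 1.15 in all 4 comparisons and is called in the 2 without LPS.

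CD14 had 66.7, 39.9 and 44.0 TPM in shNR4A2 and 53.3, 31.4 and 35.2 TPM in shNR4A3 control cells, against 32.2, 18.2 and 17.3 TPM in shNT control cells. All shNR4A2 libraries lay above all shNT libraries, while the lowest shNR4A3 library lay just under the highest shNT library. The log2 fold change was 1.15 (SE 0.251, adjusted p = 0.0188 by edgeR, block adjusted p = 5.06e-06) in shNR4A2 and 0.87 (SE 0.247, adjusted p = 0.0489, block adjusted p = 0.00061) in shNR4A3 cells. The first call was lost without shNT control replicates 2 or 3 or shNR4A2 control replicate 1 (adjusted p from 0.0603 to 0.0694) and in 1 fit of all 18 libraries (adjusted p = 0.0505). The second was lost with DESeq2 (adjusted p = 0.182), in the fit of all libraries (adjusted p = 0.187) and without shNT control replicates 2 or 3 or shNR4A3 control replicates 1 or 3 (adjusted p from 0.0768 to 0.193).

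With LPS CD14 had 45.5, 26.5 and 23.8 TPM in shNR4A2 and 38.4, 16.9 and 25.7 TPM in shNR4A3 cells, against 21.7, 11.8 and 11.6 TPM in shNT cells. The shNR4A2 libraries again did not overlap those of shNT, and the shNR4A3 libraries did. The log2 fold changes by edgeR were 1.15 (SE 0.316, adjusted p = 0.0618) and 0.93 (SE 0.331, adjusted p = 0.13), and both were called with the block (adjusted p = 3.11e-11 and 0.000193), by DESeq2 (adjusted p = 0.00325 and 0.0336) and with no filter on low counts (1.35e-09 and 7.16e-07). Without shNT LPS replicate 1 or shNR4A2 LPS replicates 2 or 3 the first had an adjusted p from 0.0354 to 0.0456, and without shNR4A3 LPS replicate 2 the second had 0.0172.

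Replicate 1 had the highest CD14 of its group in all 6 groups, by a mean of 0.57 on the log2 scale above the group mean. In IRAK2, replicate 2 was the lowest of the 3 LPS libraries in each line but the highest of the shNR4A3 control libraries. TNF in the same LPS libraries ran from 1964 to 2221 TPM in shNT, from 2026 to 2223 TPM in shNR4A2 and from 1712 to 1964 TPM in shNR4A3 cells, with replicate 2 lowest in shNR4A3 cells alone.

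**Figure D4:**
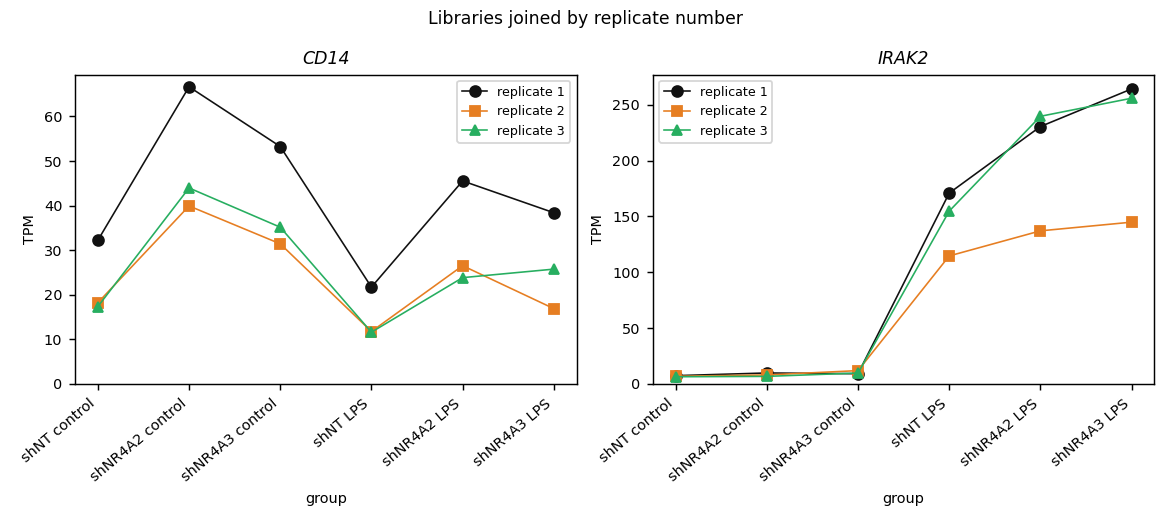
TPM of CD14 and IRAK2 (vertical axes) in the 6 groups, with libraries of the same replicate number joined by lines. Replicate 1 is the highest for CD14 in every group, and replicate 2 the lowest for IRAK2 in the 3 LPS groups.

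Some other monocytic genes were also higher than in shNT cells. Of the 9 monocytic markers, edgeR called 2 higher in shNR4A2 cells in each state and 4 higher in shNR4A3 cells in each state, and none lower, beside 3.63% and 4.31% of all genes called higher in shNR4A2 and 3.91% and 3.99% in shNR4A3 cells without and with LPS. Their median log2 fold change was 0.22, 0.36, 0.37 and 0.55, beside -0.0010, -0.0014, -0.0031 and -0.0085 over all genes. LYZ, a secreted antibacterial enzyme, had log2 fold changes of 1.68 and 1.76 in shNR4A2 cells without and with LPS and 2.25 and 2.29 in shNR4A3 cells (adjusted p = 6.22e-05, 1.72e-05, 6.72e-07 and 2.03e-05). CSF1R, the receptor of the macrophage growth factor, had 0.77, 0.87, 1.02 and 1.10 in the same order (adjusted p = 0.00495, 0.0115, 0.000205 and 0.00121), the second of which was lost without shNT LPS replicate 2 (adjusted p = 0.0548). The other calls in shNR4A3 cells were less stable. ITGAM, an integrin of myeloid cells, was at 0.80 and 0.82 without and with LPS (adjusted p = 0.0146 and 0.0225), calls that were lost in 3 and 4 of the 6 fits with a library left out (adjusted p up to 0.077 and 0.0959) and, without LPS, with DESeq2 (0.0638). SPI1, a transcription factor of myeloid cells, was at 0.37 and 0.55 (adjusted p = 0.0411 and 0.0297), and was lost with any 1 of the 6 libraries left out (0.057 to 0.164) and with all 18 libraries in 1 fit (0.147) without LPS, and in 4 of the 6 such fits (0.0947 to 0.123) with LPS. With the replicate number as a block, 5 and 4 markers were higher in shNR4A2 and 5 and 4 in shNR4A3 cells, and 1 was lower in shNR4A2 control cells (CEBPA, -0.22, adjusted p = 0.461, block 0.00847) and 1 in shNR4A3 cells with LPS (FCGR1A, -0.19, adjusted p = 0.178, block 0.0404). The summed TPM of the 9 markers, of which SPI1 was the most abundant and none was at 0, was 1909 to 2251 in shNT, 2449 to 2642 in shNR4A2 and 2909 to 3325 in shNR4A3 control cells. With LPS it was 1218 to 1488, 1774 to 2026 and 2124 to 2405, on the TPM scale whose zero point shifts with LPS. In control cells the 3 NK cell markers summed to 51.9 to 57.5 (shNT), 38.0 to 50.8 (shNR4A2) and 39.1 to 46.2 TPM (shNR4A3). With LPS these sums overlapped. The 5 B cell markers summed to 9.66 to 11.8 TPM in shNR4A3 against 12.1 to 17.3 in shNT control cells. With LPS they summed to 5.47 to 9.53 against 11.5 to 13.3 TPM. Their sums in shNR4A2 cells overlapped those of shNT cells in both states. These sums were not tested. In fitted values the 9 monocytic markers moved both ways with LPS, with 2 called higher and 3 lower in shNT, 1 and 2 in shNR4A2 and 1 and 3 in shNR4A3 cells, where 11.6%, 9.23% and 13.1% of all genes were higher and 13.3%, 10.1% and 15.0% lower. With the block 2 were higher and 3 lower in each line, where it called 2296, 2184 and 2849 of all genes higher and 2733, 2567 and 3191 lower. FCGR1A was gained in shNR4A2 (0.31, adjusted p = 0.0759 by edgeR, block 0.0239) and shNR4A3 cells (0.29, adjusted p = 0.0801, block 0.0134), and CSF1R in shNR4A2 cells. SPI1 was called higher in each line (0.61, 0.76 and 0.79, adjusted p = 0.000675, 0.00282 and 0.000499). CEBPA, a transcription factor of myeloid cells, was called lower in each line (-2.12, -1.89 and -2.39, adjusted p = 7.31e-07, 0.000277 and 5.19e-06), as was CD33, a surface receptor (-0.44, -0.50 and -0.53, adjusted p = 0.00284, 0.0112 and 0.00213). The CD33 call in shNR4A2 cells was lost without shNR4A2 control replicate 1 or shNR4A2 LPS replicate 3 (0.0534 and 0.0717). CSF1R was at -0.44, -0.35 and -0.36 (adjusted p = 0.0314, 0.103 and 0.0219), and its calls were lost in shNT cells without shNT control replicate 1 or shNT LPS replicates 2 or 3 (0.095 to 0.156), and in shNR4A3 cells without shNR4A3 control replicate 1 or shNR4A3 LPS replicate 3 (0.0901 and 0.103) and with all 18 libraries in 1 fit (0.0706). In shNR4A2 cells CSF1R was called with the block (0.0116) and with no filter on low counts (0.0456). The part of these genes in the difference in CD14 was not tested. In bulk RNA, fewer cells with a transcript and less of it per cell cannot be told apart.

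LY96 rests on few reads. The shNR4A2 control libraries had 17, 12 and 20 counts and the shNT control libraries 4, 1 and 7, which did not overlap. The log2 fold change was 1.83 (SE 0.493, adjusted p = 0.0499649 by edgeR, block adjusted p = 0.0163). The call was lost with DESeq2 (adjusted p = 0.113) and with any 1 of the 6 libraries left out (adjusted p from 0.0563 to 0.16). With LPS LY96 had 8, 10 and 17 counts in shNR4A2, 5, 5 and 5 in shNR4A3 and 10, 4 and 4 in shNT cells and did not pass the filter in a comparison with shNT. TICAM2 did not pass edgeR's filter on low counts in any comparison, with 6 to 23 counts over the 3 libraries of a group. It shares 2666 bases (82.2% of its exons) on the same strand with the read-through gene TMED7-TICAM2, which had 146 counts over the 18 libraries against 76 for TICAM2, so that reads of the 2 genes cannot be assigned with certainty.

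IRAK2 was higher in shNR4A3 than in shNT control cells, at 9.10, 11.9 and 9.72 TPM against 7.36, 6.81 and 6.39 TPM, with no overlap. The log2 fold change was 0.62 (SE 0.155, adjusted p = 0.0278 by edgeR, block adjusted p = 0.0118), and the call was lost without shNT control replicates 2 or 3 or shNR4A3 control replicates 2 or 3 (adjusted p from 0.065 to 0.121). With all 18 libraries in 1 fit its adjusted p was 0.277. In shNR4A2 control cells IRAK2 was at 0.25 (SE 0.180, adjusted p = 0.468). With LPS its log2 fold change was 0.53 (SE 0.241, adjusted p = 0.224, block adjusted p = 1.52e-07) in shNR4A2 and 0.66 (SE 0.241, adjusted p = 0.137, block adjusted p = 4.8e-05) in shNR4A3 cells. Without shNR4A2 LPS replicate 2 and shNR4A3 LPS replicate 2, its lowest libraries, the adjusted p was 0.0171 and 0.0033. With no filter on low counts both were called (0.000129 and 1.08e-08), and with DESeq2 neither was (0.142 and 0.287).

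TICAM1, IRAK1, TIRAP and MYD88 were not called against shNT cells by edgeR, and each was in at least 1 comparison with the replicate number as a block. TICAM1 had log2 fold changes of 0.30 (adjusted p = 0.191, block 0.028) in shNR4A2 control cells, 0.43 (adjusted p = 0.123, block 6.1e-06) in shNR4A2 cells with LPS and 0.41 (adjusted p = 0.109, block 0.00126) in shNR4A3 cells with LPS. IRAK1 lay between 0.21 and 0.24 in all 4 comparisons, with adjusted p from 0.219 to 0.304 by edgeR and from 0.00912 to 0.0224 with the block. TIRAP was at -0.33 (SE 0.133, adjusted p = 0.174, block 0.0296) in shNR4A2 control cells, where its 3 libraries (10.7 to 12.3 TPM) lay below those of shNT (14.3 to 15.3 TPM). MYD88 was at 0.41 (SE 0.125, adjusted p = 0.0839, block 0.000736) in shNR4A3 cells with LPS, whose libraries lay at or above 73.6 TPM and did not overlap those of shNT. MYD88 was called there by DESeq2 (adjusted p = 0.0393), and without shNR4A3 LPS replicate 2 the adjusted p was 0.00714 for MYD88 and 0.0166 for TICAM1. With no filter on low counts TICAM1 was called in both lines with LPS (adjusted p = 0.0109 in shNR4A2 and 0.00756 in shNR4A3) and MYD88 in shNR4A3 cells (0.00713). IRAK4 and TRAF6 were called in none of the 4 comparisons with or without the block, with log2 fold changes between -0.21 and 0.21.

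In shNR4A2 against shNR4A3 cells 0 of 9 members tested were called without and 0 of 8 with LPS, against 3.08% and 2.33% of all genes. MYD88 came nearest, at 53.8 to 63.9 TPM in shNR4A2 and 73.6 to 93.4 TPM in shNR4A3 cells with LPS, with a log2 fold change of -0.50 (SE 0.147, adjusted p = 0.123 by edgeR). With the replicate number as a block its adjusted p was 6.22e-05. For CD14 the difference between the knockdown lines was 0.28 (95% interval -0.21 to 0.76) without and 0.23 (-0.56 to 1.02) with LPS.

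The members' surroundings in the pathway were followed through 4 lists, 37 genes in all. Among the 8 genes of receptor and LPS handling, 6 were tested. TLR4, the receptor itself, had 21.6, 16.6 and 17.0 TPM in shNT control cells and 39.2, 36.1 and 26.3 TPM with LPS, a log2 fold change of 1.09 (SE 0.143, adjusted p = 6.69e-05 by edgeR). It rose by 0.67 (adjusted p = 0.0138) in shNR4A3 cells, a call lost without shNR4A3 control replicate 3 or shNR4A3 LPS replicate 1 (adjusted p = 0.0668 and 0.0563). In shNR4A2 cells it was at 0.38 (SE 0.203, adjusted p = 0.228, block 0.0457), with 26.1, 15.5 and 17.4 TPM without and 23.4, 24.3 and 16.3 TPM with LPS, which overlapped. Without shNR4A2 control replicate 1, the highest of these libraries, it was at 0.64 and called (adjusted p = 0.0341). The interaction of LPS with shNR4A2 was -0.71 (SE 0.281, adjusted p = 1, block 0.202), so a difference in the response of TLR4 was not called. Against shNT cells with LPS, TLR4 in shNR4A2 cells was at -0.61 (SE 0.170, adjusted p = 0.0647, block 1.55e-08), which was called by DESeq2 (0.0136) and with no filter on low counts (6.94e-05).

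CD180, a TLR4-like receptor, fell with LPS in every line, with a log2 fold change by edgeR of -1.53 (adjusted p = 0.00842) in shNT, -1.79 (adjusted p = 0.000275) in shNR4A2 and -2.08 (adjusted p = 6.59e-05) in shNR4A3 cells. Without LPS it was higher in shNR4A2 (1.22, adjusted p = 0.0109) and shNR4A3 (1.66, adjusted p = 0.000572) than in shNT cells. With LPS it was at 0.96 (adjusted p = 0.21, block 0.0183) in shNR4A2 and 1.115 (adjusted p = 0.144, block 0.0241, no filter on low counts 0.0215) in shNR4A3 cells. LY86 (MD-1), which binds CD180 as LY96 binds TLR4, was higher in shNR4A2 cells by 0.71 without (adjusted p = 0.0224) and 0.78 with LPS (adjusted p = 0.0158). Both LY86 calls of shNR4A2 cells were lost in 3 of the 6 fits with a library left out, with adjusted p from 0.079 to 0.103 without shNT control replicates 2 or 3 or shNR4A2 control replicate 1, and from 0.0537 to 0.0673 without any one shNT LPS replicate. In shNR4A3 cells LY86 was higher by 1.28 (adjusted p = 0.000113) and 1.17 (adjusted p = 0.000556). CNPY3, a chaperone of Toll-like receptors, was higher in shNR4A2 cells with LPS (0.31, adjusted p = 0.0426), a call lost with any 1 of the 6 libraries left out (adjusted p from 0.0513 to 0.179) and with no filter on low counts (0.0985). In shNR4A3 control cells it was at 0.28 (adjusted p = 0.0544), called by DESeq2 (0.0228), with the block (0.0103) and with all 18 libraries in 1 fit (0.0481). It was at 0.22 in shNR4A3 cells with LPS (adjusted p = 0.0938, block 0.0144) and at 0.23 in shNR4A2 control cells (adjusted p = 0.245, block 0.0245). HSP90B1 and TMED7, which fold and move TLR4, were called in no comparison by edgeR on the libraries compared and without the block. HSP90B1 was called with the block in shNR4A2 against shNT control cells (-0.19, adjusted p = 0.0172) and with all 18 libraries in 1 fit for LPS in shNR4A2 cells (0.23, adjusted p = 0.0249). LBP and TRIL did not pass the filter of edgeR. With LPS 1 gene of the list rose and 1 fell in shNT and shNR4A3 cells and 1 fell in shNR4A2 cells. Of all genes 24.9%, 28.1% and 19.3% were called there (11.6%, 13.1% and 9.23% higher, 13.3%, 15.0% and 10.1% lower). The medians of the 6 were 0.03, -0.01 and 0.12 in these lines, beside -0.01, -0.01 and -0.02 over all genes. With the block, which called 23.6% and 28.1% of all genes in shNR4A2 and 14.8% and 21.8% in shNR4A3 cells, 3 and 3 were higher and 1 and 1 lower in shNR4A2 than in shNT cells without and with LPS, and 3 and 3 higher and none lower in shNR4A3 cells.

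All 13 genes of the kinase and ubiquitin relay were tested with LPS, and 4 rose and 2 fell in each line, where 11.6%, 9.23% and 13.1% of all genes rose and 13.3%, 10.1% and 15.0% fell in shNT, shNR4A2 and shNR4A3 cells. With the block 4 rose in each line and 4, 2 and 3 fell, where it called 2733, 2567 and 3191 of all genes lower. PELI3 was at -0.65 in shNR4A3 cells (adjusted p = 0.054 by edgeR, block 0.0112, all 18 libraries in 1 fit 0.0302). In shNT cells the numbers do not pair the libraries. There PELI3 was at -0.49 (adjusted p = 0.0658, block 0.0222) and TAB3 at -0.32 (adjusted p = 0.0993, block 0.0284). MAP3K8, a kinase of the ERK branch, rose by log2 fold changes of 3.40 in shNT, 3.81 in shNR4A2 and 4.21 in shNR4A3 cells (adjusted p = 1.22e-08, 4.48e-06 and 3.06e-06 by edgeR). PELI1, a ligase that acts on IRAK proteins, rose by 1.70, 1.89 and 1.77 (adjusted p = 2.03e-06, 3.52e-05 and 3.52e-05), and TAB2, which holds TAK1 to ubiquitin chains, by 0.96, 1.43 and 1.35 (adjusted p = 1.14e-06, 6.51e-06 and 3.77e-05). UBE2N, an enzyme that builds ubiquitin chains with TRAF6, was at 0.34, 0.37 and 0.29 (adjusted p = 0.00497, 0.0432 and 0.0318). Its calls in shNR4A2 and shNR4A3 cells were lost in 5 of the 6 fits with a library left out (adjusted p from 0.0828 to 0.185 and from 0.0734 to 0.131), and that in shNR4A2 cells with no filter on low counts (0.121). TAB1, another partner of TAK1, fell by 0.41, 0.59 and 0.68 on the log2 scale (adjusted p = 0.00657, 0.00943 and 0.00306), the second of which was lost without shNR4A2 LPS replicate 1 (adjusted p = 0.0577). PELI2 was at -0.34, -0.49 and -0.55 (adjusted p = 0.0464, 0.0432 and 0.0299), calls that were lost in 5, 5 and 3 of the 6 fits with a library left out (adjusted p up to 0.186). The shNT call was also lost with DESeq2 (0.0842) and with all 18 libraries in 1 fit (0.153). The median log2 fold change of the 13 was 0.12, 0.10 and 0.07, beside -0.01, -0.02 and -0.01 over all genes. Against shNT cells TAB2 was the 1 gene of the list that edgeR called without the block, higher in shNR4A2 cells with LPS (0.67, adjusted p = 0.0097) and in shNR4A3 cells without (0.36, adjusted p = 0.0193) and with LPS (0.75, adjusted p = 0.0138). These calls were lost without shNT LPS replicate 2 (adjusted p = 0.0548) in the first, without shNT control replicates 2 or 3 or shNR4A3 control replicate 3 (0.0681 to 0.0872) and with all 18 libraries in 1 fit (0.119) in the second, and without shNT LPS replicates 1 or 2 or shNR4A3 LPS replicate 3 (0.053 to 0.0671) in the third. With the block 5 and 2 genes of the list were higher in shNR4A2 cells without and with LPS and 1 and 3 in shNR4A3 cells, with none lower. The block called 12.1% and 15.2% of all genes higher in shNR4A2 and 8.09% and 12.3% in shNR4A3 cells. MAP3K8 had log2 fold changes of 0.87 (adjusted p = 0.177, block 5.13e-11) in shNR4A2 and 1.22 (adjusted p = 0.0551, block 2.36e-05) in shNR4A3 cells with LPS, numerically above those of TAB2. With no filter on low counts both were called (adjusted p = 1.39e-11 and 3e-28), with all 18 libraries in 1 fit the second was (0.0278), and with DESeq2 neither was (0.346 and 0.0973). Without shNR4A2 LPS replicate 2 and shNR4A3 LPS replicate 2 the adjusted p was 0.0202 and 0.000566.

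In the TRIF arm, downstream of TICAM1, 5 of 8 genes rose and 1 fell in shNT and in shNR4A3 cells, and 4 rose and 1 fell in shNR4A2 cells. Of all genes 24.9%, 28.1% and 19.3% were called in these lines (11.6%, 13.1% and 9.23% higher, 13.3%, 15.0% and 10.1% lower). The counts differ by TBK1, a kinase of IRF3, which was at 0.47 (adjusted p = 0.00455) in shNT, 0.42 (adjusted p = 0.0169) in shNR4A3 and 0.38 (adjusted p = 0.0555 by edgeR) in shNR4A2 cells. In shNR4A2 cells it was called by DESeq2 (0.0424), with RLE normalization (0.0451), with the block (0.013) and with all 18 libraries in 1 fit (0.0149), and in shNR4A3 cells its call was lost without shNR4A3 control replicates 2 or 3 or shNR4A3 LPS replicate 1 (0.0524 to 0.0779). TRAF3, the ligase that TICAM1 recruits, rose by 1.68, 1.86 and 2.27 in shNT, shNR4A2 and shNR4A3 cells (adjusted p = 2.47e-08, 4.91e-06 and 1.28e-06 by edgeR). TANK rose by 1.20, 1.31 and 1.23 (adjusted p = 5.38e-07, 3.74e-05 and 1.27e-05) and IKBKE, a kinase of IRF3, by 0.88, 0.89 and 1.13 (adjusted p = 1.47e-05, 0.00049 and 3.04e-05). TBKBP1, which binds the kinase TBK1, fell by 0.68, 0.79 and 0.89 on the log2 scale (adjusted p = 0.00747, 0.0195 and 0.0104), the second of which was lost without shNR4A2 control replicates 2 or 3 or shNR4A2 LPS replicate 1 (adjusted p from 0.0655 to 0.0864). The median of the 8 genes was 0.61, 0.53 and 0.63, beside -0.01, -0.02 and -0.01 over all genes. Against shNT cells TRAF3 was lower in shNR4A3 control cells (-0.64, adjusted p = 0.000893), and RIPK1, a kinase that TICAM1 binds, was higher in shNR4A3 cells with LPS (0.44, adjusted p = 0.0278). The RIPK1 call was lost when replicate 2 or 3 of shNT LPS or 1 or 3 of shNR4A3 LPS was left out (adjusted p from 0.0611 to 0.105). With the block 0 and 2 genes were higher and 1 and 1 lower in shNR4A2 cells without and with LPS, and 0 and 2 higher and 1 and 0 lower in shNR4A3 cells. Of all genes it called 23.6% and 28.1% in shNR4A2 and 14.8% and 21.8% in shNR4A3 cells.

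Among 8 brakes on the pathway, LPS raised 3 in shNT and shNR4A2 and 4 in shNR4A3 cells and lowered 1 in each line. Of all genes 24.9%, 19.3% and 28.1% were called in shNT, shNR4A2 and shNR4A3 cells (11.6%, 9.23% and 13.1% higher, 13.3%, 10.1% and 15.0% lower). In shNR4A2 cells, where the numbers pair the libraries, the block called 3 brakes lower (2567 of all 15772 genes). SIGIRR was at -0.36 there (adjusted p = 0.228 by edgeR, block 0.0245). SARM1 was at -0.78 (adjusted p = 0.057, block 0.0373, all 18 libraries in 1 fit 0.0442). The block gave the same counts as without it in shNT and shNR4A3 cells. The median log2 fold change of the 8 was 0.06, 0.01 and 0.22, beside -0.01, -0.02 and -0.01 over all genes. TNFAIP3 (A20), which removes ubiquitin chains from TRAF6 and RIPK1, rose by 5.85, 5.78 and 6.30 (adjusted p = 9.45e-12, 5.79e-09 and 9.45e-10 by edgeR). TNIP1, its partner, rose by 2.12, 2.22 and 2.53 (adjusted p = 1.42e-08, 5.81e-06 and 1.82e-06) and CYLD, another deubiquitinase, by 1.44, 1.67 and 1.79 (adjusted p from 1.11e-07 to 5.62e-06 for CYLD). TOLLIP, which binds IRAK1, was at -0.27, -0.37 and -0.52 (adjusted p = 0.0466, 0.041 and 0.0017), and the first 2 calls were lost in 4 and 6 of the 6 fits with a library left out (adjusted p up to 0.194), and with DESeq2 (adjusted p = 0.0667 and 0.0527). IRAK3 (IRAK-M), a family member that blocks the IRAK complex, was the other brake called higher with LPS in shNR4A3 cells. It was lower in shNR4A2 than in shNT control cells (-0.41, adjusted p = 0.0365). That call was lost with replicate 1 or 3 of shNT control or 2 or 3 of shNR4A2 control left out (adjusted p from 0.0568 to 0.146). With LPS IRAK3 was at -0.31 in shNR4A2 against shNT cells (adjusted p = 0.0911 by edgeR). That was called with the block (0.000446) and with all 18 libraries in 1 fit (0.0457). IRAK3 was also lower in shNR4A2 than in shNR4A3 cells with LPS (-0.49, adjusted p = 0.03), which was lost with any 1 library left out (adjusted p from 0.0537 to 0.126). TOLLIP was higher in shNR4A3 than in shNT control cells (0.35, adjusted p = 0.0278), lost in 5 of the 6 such fits (adjusted p from 0.0586 to 0.123). With the block 3 and 3 brakes were higher and 2 and 2 lower in shNR4A2 than in shNT cells without and with LPS, and 1 and 4 higher and none lower in shNR4A3 cells. The block called 23.6% and 28.1% of all genes in shNR4A2 and 14.8% and 21.8% in shNR4A3 cells.

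**Figure D5:**
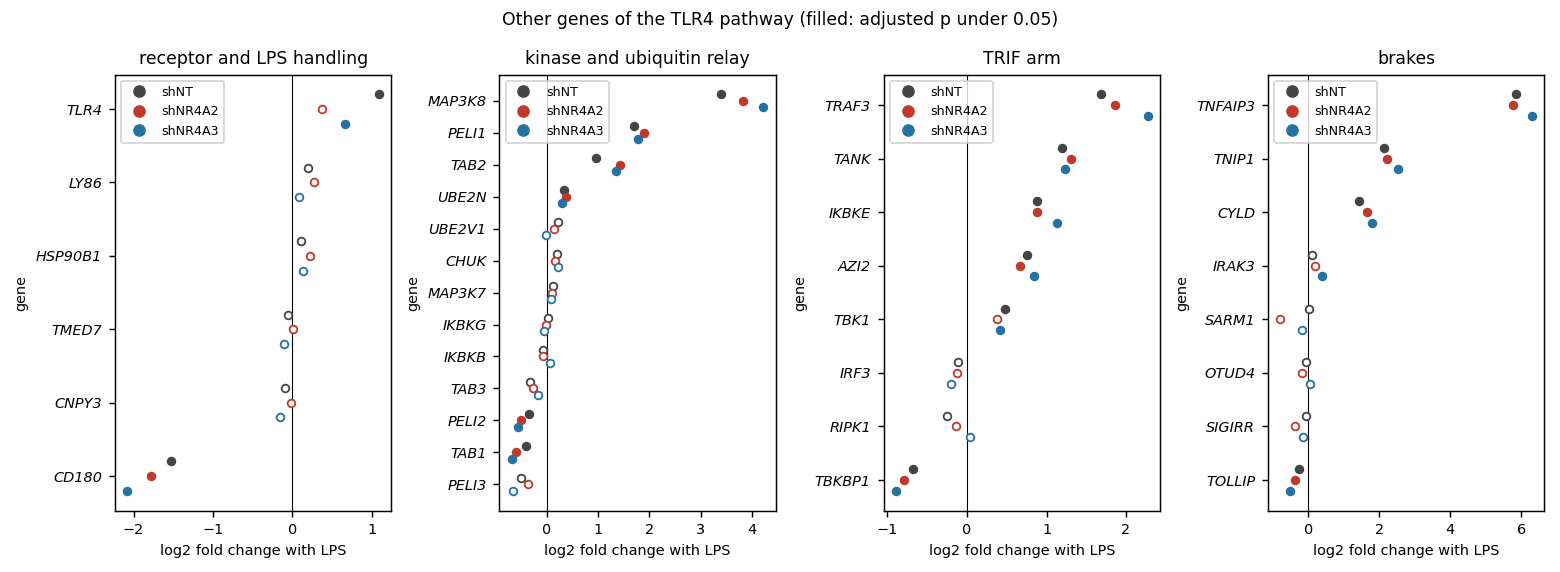
Log2 fold change with LPS (horizontal axes, edgeR) of the other pathway genes tested, by list, in shNT (grey), shNR4A2 (red) and shNR4A3 (blue) cells, filled where the adjusted p is under 0.05. MAP3K8, TRAF3 and TNFAIP3 have the largest rise in their lists and CD180 the largest fall.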

How the data were processed

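The authors made polyadenylated libraries and sequenced them from both ends, and deposited 1 table of whole-number read counts per library, without normalization, for 57500 Ensembl genes with GRCh38 positions and exon lengths. Per the submitters' processing notes Trimmomatic 0.36, STAR 2.5.2b and featureCounts of Subread 1.5.2 were used on GRCh38; strand and multi-mapping settings are not given in the sources used here. Symbols came from GENCODE 29 (56898 genes). The study's legends describe the sequencing as independent experiments, and no 2 libraries held identical counts. TPM was the count per exon base, set to a common total for each library.

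Groups were compared with edgeR 4.0.16 in R 4.3.3 (filterByExpr at its defaults, TMM, quasi-likelihood F test), each pair on its own 6 libraries and each interaction on 12, with Benjamini-Hochberg adjustment over all genes tested and a limit of 0.05. Intervals of 95% are those of the fit and the exact tests are permutations of TPM. The procedure was tested on simulated data, of which no result is given here. Totals per library bound precision, and genes with few counts (LY96, TICAM2) are the least precise. All 10 members were described, with TLR4 and, in each pathway list and comparison, up to 3 genes called higher and 3 lower by size of change. Further genes were added, among them UBE2N, TBK1 and genes called only in an alternative fit. AZI2 of the TRIF arm, called higher with LPS in each line, was not described. The likeness to other genes was by Pearson's r of log2 CPM with a prior count of 2. The members, lists and tests were chosen with earlier results of these data known. Replicate numbers were taken to pair libraries where residuals of same-numbered libraries correlated above 0.1 in all 3 replicates. They did in 8 of 9 pair comparisons (lowest r from 0.159 to 0.354), but not for LPS in shNT cells (r from 0.0598 to 0.256). Alternatives were DESeq2 1.42.0, RLE normalization, no filter on low counts, the replicate block, all 18 libraries in 1 fit, CPM in place of TPM, 1 strand for motifs and each library left out.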

Additional observations from a re-analysis of the deposited data

How the results depend on the processing

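With LPS the members called stayed within 1.5 times under every alternative. In shNR4A2 against shNT control cells, 1 was called with DESeq2, 5 with the replicate block and 1 with all 18 libraries in 1 fit, against 2; with LPS 1 with DESeq2, 3 without a filter on low counts and 4 with the block, against 0. In shNR4A3 against shNT cells DESeq2 called 1 and the fit of all libraries 0 without LPS, against 2, and with LPS DESeq2 called 2, no filter 4, the block 5 and the fit of all libraries 1, against 0. For shNR4A2 against shNR4A3 with LPS no filter, the block and the fit of all libraries each called 1 member, MYD88, against 0. With 1 library left out, the 4 knockdown comparisons called 0 to 1 and 0 to 2 members in shNR4A2 cells without and with LPS, and 0 to 2 and 0 to 4 in shNR4A3 cells. The block moved no call of IRAK4 or TRAF6.

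Among all genes, the replicate block called 4751 for LPS in shNR4A2 cells (all libraries in 1 fit 4601), 3733 and 4385 for shNR4A2 and 2267 and 3401 for shNR4A3 against shNT without and with LPS, 1800 and 3666 for shNR4A2 against shNR4A3, and 8 and 22 for the interactions of shNR4A2 and shNR4A3. No filter called 1611 and 1843 for shNR4A2, 1839 for shNR4A3 with LPS, 838 and 1102 between the knockdown lines, and 29 and 138 for the interactions. The fit of all libraries called 1691 for shNR4A2 with LPS and 1032 between the knockdown lines with LPS, and DESeq2 689 there and 2 and 10 for the interactions. With 1 library left out the counts ran from 517 to 1128 and from 342 to 1477 for shNR4A2, from 649 to 975 and from 383 to 1693 for shNR4A3, from 249 to 470 and from 94 to 217 between the knockdown lines, and from 0 to 8 and 0 to 44 for the interactions. The cause of these differences was not tested.

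The 15 member values called kept their call in 139 of 165 alternatives, lost it in 26 and changed sign in 0. Those not called stayed so in 909 of 949 and were called in 40, and 82 of the 949 had the other sign. CPM in place of TPM moved 19 of 90 ratios by more than 1 SD. Depth limits LY96 and TICAM2, and the SE of CD14 in shNR4A2 against shNT cells fell with the replicate block from 0.251 to 0.0983 without and from 0.316 to 0.119 with LPS; without LPS its fold kept its sign with any 1 library left out, while the adjusted p passed to either side of the limit.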
